A study of Homo sapiens with 16 samples.

Results

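The genes described here are 56 developmental transcription factors, the homeobox and PAX genes outside the HOX clusters that were given by name, from 19974 protein-coding genes in all. They comprise 6 DLX, 8 LIM homeobox, 6 NKX, 7 PAX, 6 IRX and 2 CDX genes, with SIX2, SIX3 and SIX6 and the OTX, EN, EMX, GSC, PITX, MSX, TLX, VAX and GBX genes making up the remainder. H3K27me3 and H3K4me3 were read at each gene in TKO cells, plasma cells derived from the multiple myeloma line KMS-11 with the genotype WHSC1(+/-), where WHSC1 is an older name of NSD2, a methyltransferase of H3K36. The groups were plain TKO cells, for which no added form is named (TKO), and TKO cells expressing the NSD2 mutant D1240A, the NSD2 mutant F1295A or wild type NSD2 (WT). All 4 groups share the WHSC1(+/-) background, and how the forms were introduced, or whether a group is 1 clone, is not given in the sources used here. The study asked how mutant NSD2 may alter chromatin marks, using ChIPmentation, a form of ChIP in which a transposase adds the sequencing adapters to the precipitated chromatin. The 16 samples were, for each form, 2 of H3K27me3, 1 of H3K4me3 and 1 of IgG.

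Homeobox genes encode DNA-binding proteins that set the identity of body regions and cell types in the embryo, and PAX proteins bind DNA through a paired domain, some of them with a homeodomain as well. In cells that do not use them, such genes are classical targets of the Polycomb complex PRC2, which deposits H3K27me3 and is known to be held back by the H3K36 methylation that NSD2 lays down. H3K4me3 marks active or poised promoters, and promoters that carry it together with H3K27me3 are called bivalent.

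Because the gene table gives no strand, both ends of a gene record were read, and a peak up to 1 kb from an end counted as a mark. A marked end can therefore be the one away from the promoter. A promoter table gave the start site for 40 of the 56 genes and for 15813 of all genes. Marked length is the number of bases under peaks within 10 kb of the ends, a window of 21.9 kb for the shortest gene, GSC, and 40.002 kb for the longest genes. It cannot exceed this window, however wide the peak. Rank is the percentile of a peak by total signal within its own list. There was 1 peak list per form and mark, so the difference between forms has no replicate check, no test was run, and no p-value is given. Ranges after a share are Clopper-Pearson 95% intervals (exact), for counting error only.

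For H3K27me3 the number of peaks was 5881 in TKO, 2188 in D1240A, 2083 in F1295A and 3790 in WT, and for H3K4me3 it lay between 7396 and 8239. Read depth is unknown, and its part in these list lengths was not tested. Of 10 plasma cell markers, 6 carried H3K4me3 in TKO, 7 in D1240A, 8 in F1295A and 8 in WT. IRF4, PRDM1, XBP1, MZB1, JCHAIN and TNFRSF17 carried it in every form, while CD38 and SLAMF7 carried it in none. Of the 15 markers of B cells, T cells, myeloid cells, fibroblasts and epithelium, BCL6 in F1295A was the single one with H3K4me3. H3K27me3 was absent from 8 of the 10 plasma cell markers in every form, and was present at SDC1 in all 4 forms and at SLAMF7 in TKO. Of 5 B cell markers, 3 had H3K27me3 at their ends in WT and 0 in the other forms. Of 3 myeloid markers, 2 had it in TKO and 0 in the other forms. The shares of all genes were 9.57% in WT and 10.0% in TKO. Within 10 kb the mark was also found at PAX5 in TKO (12.3 kb) and F1295A (8.31 kb) and at SPIB in TKO (5.60 kb). S100A8 had it within 10 kb in every form, and CSF1R in WT (0.688 kb). COL1A1 was marked at its ends in all 4 forms, and PDGFRB and CD5 in TKO alone.

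The promoters below stand for the outcomes described in the results. DLX1 and DLX2 carried H3K27me3 at their starts in WT and in neither mutant, LHX4 carried both marks at its start in all forms, NKX2-1 had H3K4me3 in WT alone, and GSC had no mark in any list. Each line gives the 250 bases before the start site, 5′ to 3′ on the strand of the gene, from RefSeq (GRCh38.p14), with every CpG in capitals. DLX1 is at chr2:172085257-172085506 on the plus strand, DLX2 at chr2:172102901-172103150 on the minus strand, LHX4 at chr1:180230014-180230263 on the plus strand, NKX2-1 at chr14:36520233-36520482 on the minus strand and GSC at chr14:94770114-94770363 on the minus strand.
DLX1: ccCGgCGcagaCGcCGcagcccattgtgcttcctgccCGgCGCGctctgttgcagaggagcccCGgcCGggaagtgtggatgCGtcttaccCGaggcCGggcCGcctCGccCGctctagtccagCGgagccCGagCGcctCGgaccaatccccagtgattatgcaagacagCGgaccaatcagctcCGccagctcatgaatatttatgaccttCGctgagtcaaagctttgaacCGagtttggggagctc
DLX2: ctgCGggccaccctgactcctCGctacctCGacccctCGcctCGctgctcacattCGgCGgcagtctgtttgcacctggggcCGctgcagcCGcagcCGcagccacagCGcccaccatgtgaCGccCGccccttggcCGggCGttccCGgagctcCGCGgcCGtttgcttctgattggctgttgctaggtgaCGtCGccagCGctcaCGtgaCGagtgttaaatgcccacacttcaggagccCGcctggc
LHX4: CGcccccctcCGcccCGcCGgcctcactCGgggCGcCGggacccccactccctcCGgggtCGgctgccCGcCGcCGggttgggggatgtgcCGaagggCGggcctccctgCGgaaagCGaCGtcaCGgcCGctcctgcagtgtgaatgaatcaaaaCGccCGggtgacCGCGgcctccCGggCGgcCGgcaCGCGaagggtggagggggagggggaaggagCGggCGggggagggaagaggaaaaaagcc
NKX2-1: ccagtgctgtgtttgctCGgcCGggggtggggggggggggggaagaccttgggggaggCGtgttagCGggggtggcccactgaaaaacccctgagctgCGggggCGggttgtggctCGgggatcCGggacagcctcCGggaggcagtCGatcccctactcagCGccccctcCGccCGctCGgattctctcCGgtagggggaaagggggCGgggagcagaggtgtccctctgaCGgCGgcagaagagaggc
GSC: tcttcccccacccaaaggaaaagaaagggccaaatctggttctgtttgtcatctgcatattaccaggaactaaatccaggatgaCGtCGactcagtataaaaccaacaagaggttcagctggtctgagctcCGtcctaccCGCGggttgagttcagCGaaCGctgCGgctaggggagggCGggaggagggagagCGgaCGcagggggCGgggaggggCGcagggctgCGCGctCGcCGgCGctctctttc
These stretches hold 23 CpG in DLX1, 25 in DLX2, 30 in LHX4, 18 in NKX2-1 and 18 in GSC. The unmarked GSC and NKX2-1 thus have the same number, but the WT peak at NKX2-1 was weak (percentile 0.633).

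H3K27me3 lay within 1 kb of an end at 16 of the 56 genes in TKO (28.6%, 17.3 to 42.2). D1240A had 14 (25%, 14.4 to 38.4), F1295A 14 (25%, 14.4 to 38.4) and WT 18 (32.1%, 20.3 to 46.0). Among all protein-coding genes the shares were 10.0% in TKO, 5.36% in D1240A, 5.79% in F1295A and 9.57% in WT, all below the lower bound of the developmental genes in the same form. H3K4me3 ran the other way. It was present at 8 of the 56 genes in TKO (14.3%), 7 in D1240A (12.5%), 9 in F1295A (16.1%) and 9 in WT (16.1%), beside 39.9% of all genes in TKO, 41.6% in D1240A, 44.5% in F1295A and 43.6% in WT. Both marks stood at the ends of 2 genes in each form (3.57%, 0.435 to 12.3). Among all genes the shares were 1.12% in TKO, 0.726% in D1240A, 0.971% in F1295A and 1.59% in WT, all within that interval. No peak of either mark in any list was found at 31 of the 56 genes (55.4%, 41.5 to 68.7), near the 45.2% of all genes.

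**Figure D1:**
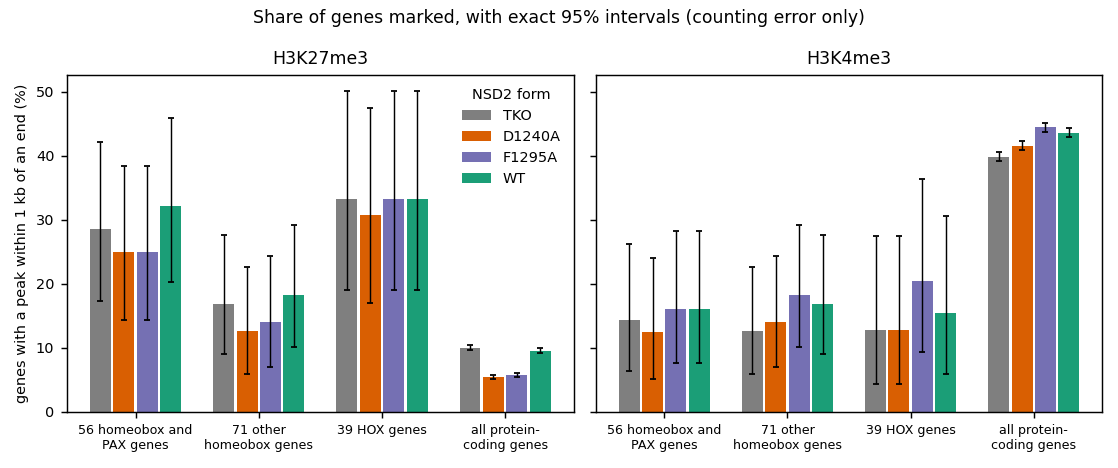
Percent of genes with a peak within 1 kb of an end, by NSD2 form, for the 56 homeobox and PAX genes, 71 other homeobox genes, 39 HOX genes and all protein-coding genes, with exact 95% intervals as error bars. For H3K27me3 the 56 genes stand at 25% to 32.1% and all genes at 5.36% to 10.0%, while for H3K4me3 the order of these groups is the opposite.

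Other homeobox lists stood on the same sides of all genes. HOX genes, which pattern the body axis, carried H3K27me3 at 12 or 13 of 39 across the forms and H3K4me3 at 5 to 8. The 71 remaining homeobox genes with restricted roles carried H3K27me3 at 12 in TKO, 9 in D1240A, 10 in F1295A and 13 in WT, and H3K4me3 at 9 in TKO, 10 in D1240A, 13 in F1295A and 12 in WT. In contrast, 12 of 14 homeobox genes that are expressed in most tissues had H3K4me3 in every form, and 1 had H3K27me3, in TKO alone. As shares, H3K27me3 in the restricted list came to 16.9% in TKO, 12.7% in D1240A, 14.1% in F1295A and 18.3% in WT, lower in each form than at the 56 genes, with intervals that overlap. The difference between these lists was not tested.

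Across families, H3K27me3 was uneven. In WT it marked 4 of 6 DLX genes, 5 of 8 LIM homeobox genes and 3 of 5 MSX and TLX genes, while it marked 1 of 7 PAX genes and none of the 6 NKX genes, the 6 IRX genes and SIX2, SIX3 and SIX6. H3K4me3 in WT lay at 2 of 6 NKX, 2 of 6 IRX, 2 of 3 paired-type genes (PITX1 and PITX3, with GSC unmarked), at SIX2 but not SIX3 or SIX6, at 1 of 8 LIM homeobox genes, and at no DLX, PAX, MSX, TLX or CDX gene. No family carried H3K27me3 at all of its members.

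**Figure D2:**
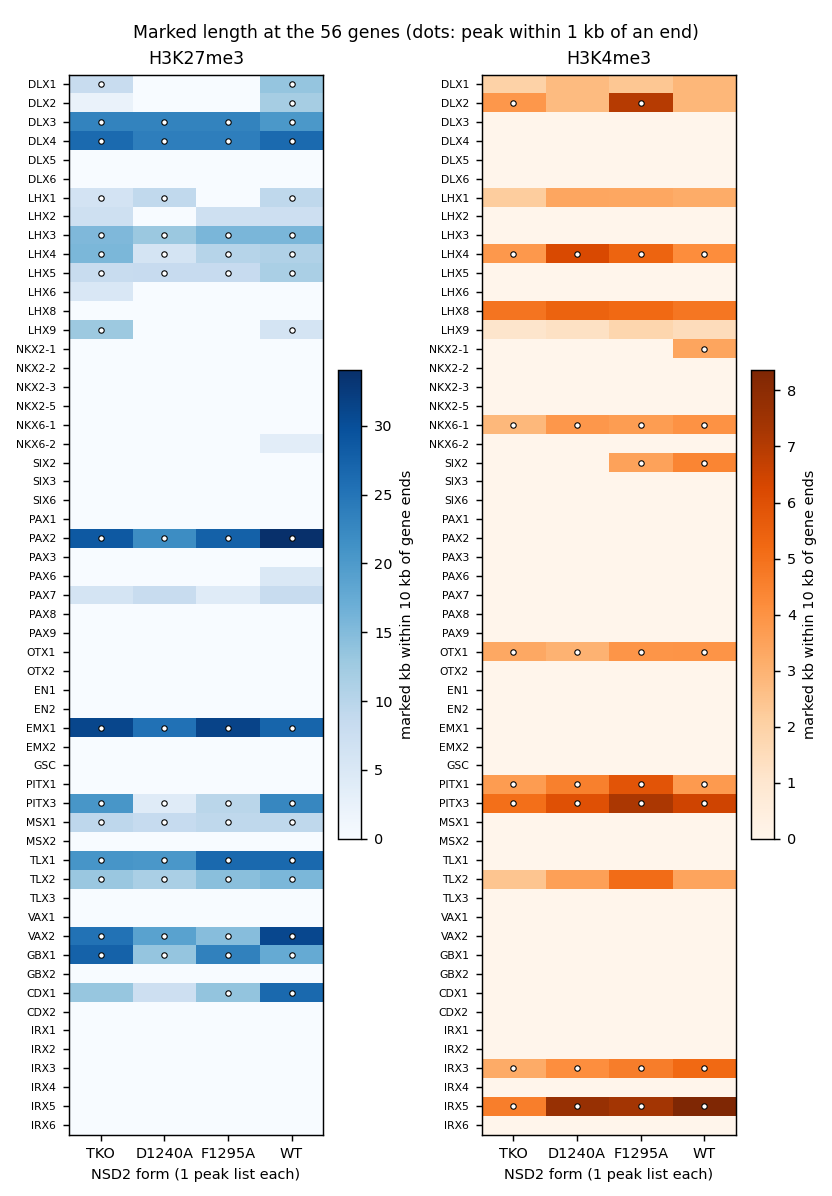
Marked length in kb within 10 kb of the gene ends for the 56 genes (rows) in the 4 forms (columns), H3K27me3 at left in blue and H3K4me3 at right in orange, with a dot where a peak lay within 1 kb of an end. PAX2 in WT has the most H3K27me3 (34.0 kb), IRX5 in WT the most H3K4me3 (8.36 kb), and 25 rows are blank in both panels.

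H3K27me3 lay at the ends of 13 of the 56 genes in all 4 forms (23.2%, beside 4.62% of all genes). These were DLX3, DLX4, EMX1, GBX1, LHX3, LHX4, LHX5, MSX1, PAX2, PITX3, TLX1, TLX2 and VAX2. PAX2, needed for the kidney and the optic nerve, had the most marked bases in WT, with 28.7 kb in TKO, 21.9 kb in D1240A, 27.6 kb in F1295A and 34.0 kb in WT. Its WT peak was 102.7 kb wide and ran over the whole gene, while the strongest peak at its ends was 85.3 kb in TKO, 30.0 kb in D1240A and 62.0 kb in F1295A. A further peak covered the far end of PAX2, 11.9 kb wide in TKO, 11.5 kb in D1240A and 36.7 kb in F1295A. Both ends of PAX2 were thus marked in every form, by 1 unbroken peak in WT and by 2 separate peaks in the others.

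DLX3 and DLX4, neighbours on chromosome 17 of which DLX3 acts in teeth, hair and bone, lay under a single shared peak. That peak measured 155.6 kb in TKO, 41.8 kb in D1240A, 41.7 kb in F1295A and 155.0 kb in WT, and ranked between percentiles 98.7 and 99.9 of its list in each. Near the ends of DLX4 the marked length was 26.4 kb in TKO, 23.7 kb in D1240A, 23.7 kb in F1295A and 26.4 kb in WT, where 26.4 kb is its whole window. Near those of DLX3 it was 23.02 kb in TKO, 23.03 kb in D1240A, 23.01 kb in F1295A and 20.3 kb in WT. The peak was wider in TKO and WT than in both mutants, yet the part close to the DLX genes stayed alike. The 2 genes share this peak and are not separate observations of it.

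VAX2, which patterns the eye along its ventral side, had 25.3 kb in TKO, 18.8 kb in D1240A, 14.7 kb in F1295A and 30.9 kb in WT. EMX1, a factor of the cerebral cortex, had 31.1 kb in TKO, 25.5 kb in D1240A, 31.5 kb in F1295A and 27.03 kb in WT. TLX1, required for the spleen and an oncogene of T cell leukaemia, had 20.6 kb in TKO, 20.4 kb in D1240A, 26.5 kb in F1295A and 26.5 kb in WT. Its whole window is 26.5 kb, so F1295A and WT were at the limit, with peaks 78.1 kb and 43.1 kb wide. D1240A was lowest at EMX1 and TLX1, and F1295A at VAX2. GBX1, a factor of spinal cord interneurons, had 27.5 kb in TKO, 13.6 kb in D1240A, 23.4 kb in F1295A and 17.6 kb in WT, again lowest in D1240A. The 5 genes of the 13 with the fewest marked bases in WT were LHX3, TLX2, LHX5, LHX4 and MSX1, with 9.25 to 15.8 kb in WT.

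The same comparison over all 13 genes gave a median ratio of marked length to WT of 0.976 in TKO, 0.768 in D1240A and 0.933 in F1295A. The marked length was shorter than in WT at 7 of the 13 genes in TKO, 12 in D1240A and 8 in F1295A. Over the 923 protein-coding genes with H3K27me3 in all forms the medians were 0.976 in TKO, 0.826 in D1240A and 0.944 in F1295A. The developmental genes therefore followed the order seen over all such genes, with D1240A lowest. In bulk chromatin, a mark in fewer cells and less mark per cell cannot be told apart.

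PITX3, a factor of midbrain dopamine neurons and the lens, showed where on a gene the mark was placed. Its marked length was 20.6 kb in TKO, 4.06 kb in D1240A, 9.72 kb in F1295A and 22.6 kb in WT, with the lowest value of all 13 genes relative to WT in D1240A, a ratio of 0.179. The TKO peak began 0.245 kb after the start, while the WT peak covered the start, with its near edge at -1.81 kb. In D1240A the peak began 11.99 kb after the start, past the far end of the gene at the neighbour ELOVL3, and in F1295A it began 8.30 kb after the start. PITX3 counts as marked in all 4 forms by its ends, but at its start site a peak was present in WT, reached within 1 kb of it in TKO, and was absent from both mutants. Position differed at other genes too. H3K27me3 at MSX1, a tooth and craniofacial factor, began 4.97 to 5.03 kb after the start, beyond the far end, and at LHX3, a pituitary and motor neuron factor, it began 3.04 to 3.49 kb after the start, in all forms. Among genes with a known start that were marked at an end, the peak covered the start in 7 of 10 in TKO, 5 of 8 in D1240A, 5 of 8 in F1295A and 9 of 11 in WT.

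**Figure D3:**
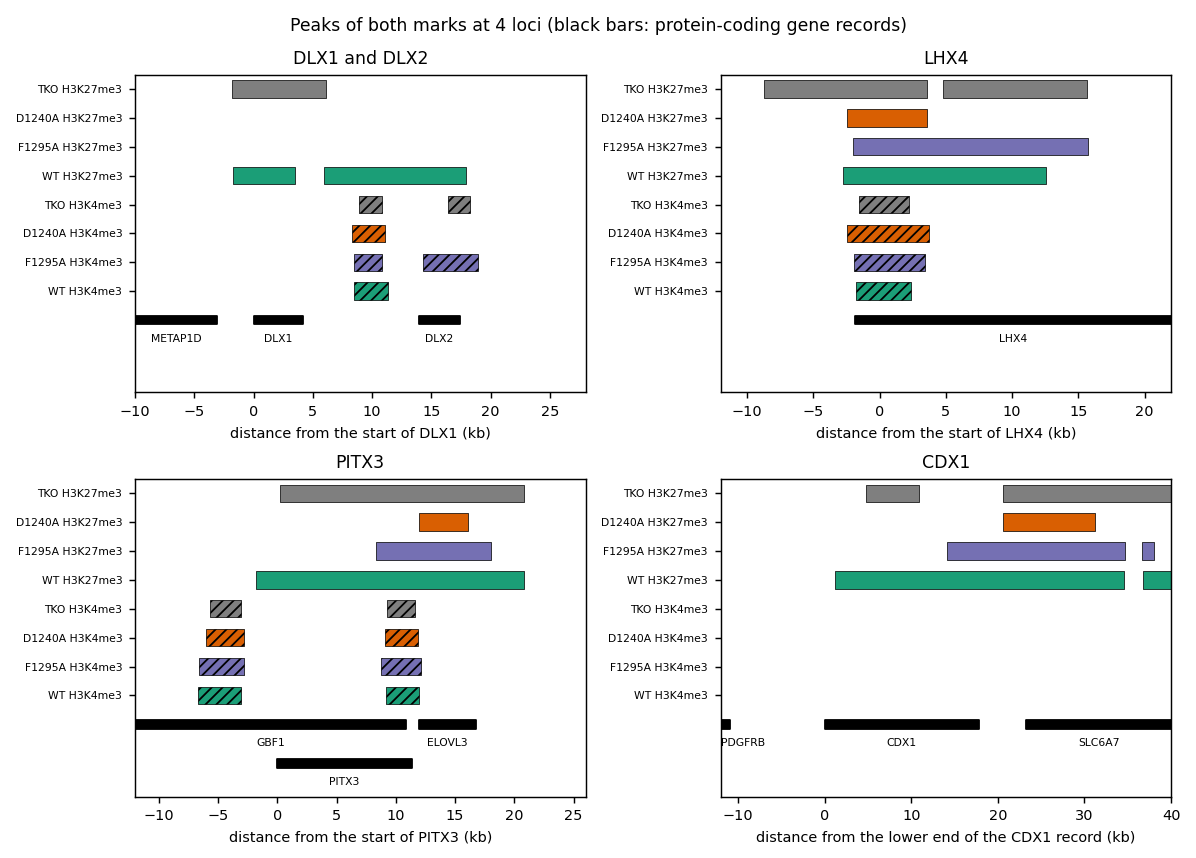
Peaks of H3K27me3 (plain bars) and H3K4me3 (hatched bars) in the 4 forms at the DLX1 and DLX2, LHX4, PITX3 and CDX1 loci, with distance in kb from a gene start (for CDX1 from the lower end of its record) on the horizontal axis and protein-coding gene records in black. H3K27me3 is missing from the DLX1 and DLX2 window in D1240A and F1295A, and at PITX3 its near edge is at 11.99 kb in D1240A and at -1.81 kb in WT.

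H3K27me3 calls in the other forms were next set against WT. Of the 18 genes marked in WT, 2 were unmarked in TKO (CDX1 and DLX2), beside 18.0% of all WT-marked genes. In D1240A, 4 were unmarked (CDX1, DLX1, DLX2 and LHX9), beside 45.3% of all WT-marked genes, and in F1295A, 4 were unmarked (DLX1, DLX2, LHX1 and LHX9), beside 41.7%. None of the 38 genes unmarked in WT was marked in another form, where the shares over all genes were 2.40% in TKO, 0.144% in D1240A and 0.233% in F1295A, so low that a count of 0 says nothing particular about the members. Over whole gene records, and with the stronger 50% of each list, 1 member was added in TKO, and no share over all genes was computed for these settings. The 3 comparisons use the same WT list, so they are not independent. The shares of members unmarked were 11.1% in TKO and 22.2% in each mutant.

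DLX1 and DLX2, which act together in the making of forebrain inhibitory neurons, sit beside each other on chromosome 2 with starts at 172085507 and 172102900. At DLX1 the H3K27me3 length was 7.98 kb in TKO, 0 in D1240A, 0 in F1295A and 13.5 kb in WT, and at DLX2 it was 2.22 kb in TKO, 0 in D1240A, 0 in F1295A and 11.9 kb in WT. The CpG-dense stretches printed above were thus inside H3K27me3 peaks in WT, with DLX1 alone also covered in TKO and neither covered in the mutants. The nearest H3K27me3 peak to DLX1 lay 2720 kb away in D1240A and 13332 kb away in F1295A, so these calls do not come from a peak just outside the window. The WT peak at DLX1 was weak for its list (percentile 9.35) and that at DLX2 was stronger (percentile 64.2).

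LHX9, a factor of the early gonad, had 12.9 kb of H3K27me3 in TKO, 0 in D1240A, 0 in F1295A and 6.01 kb in WT, where its peak ranked at percentile 5.24. LHX1, needed for the head and the kidney, had 6.21 kb in TKO, 9.02 kb in D1240A, 0 in F1295A and 9.23 kb in WT, where it ranked at percentile 56.8. TKO and WT shared the mark at both genes, and the mutants differed from each other at LHX1. CDX1, a factor of the intestine, had 13.4 kb in TKO, 7.23 kb in D1240A, 13.6 kb in F1295A and 26.5 kb in WT. The nearest peak was 2.77 kb off in TKO and in D1240A. In TKO a peak lay inside CDX1, from 4.79 to 10.9 kb after the lower end of its record, and another began 20.5 kb after it, where WT had 1 peak from 1.23 to 34.6 kb. CDX1 was therefore unmarked by its ends but not free of the mark nearby.

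The unmarked genes were also read against the rank of their WT peak. The WT list was cut into 4 rank groups of equal size. Of the 11 members in the highest group, 1 was unmarked in TKO, 1 in D1240A and 0 in F1295A, beside 9.32% of all genes in that group in TKO, 20.0% in D1240A and 15.0% in F1295A. In the group below, 5 members included 1 unmarked in TKO, 1 in D1240A and 2 in F1295A, beside 18.4% of genes in TKO, 45.8% in D1240A and 41.2% in F1295A. Both members in the lowest group, DLX1 and LHX9, were marked in TKO and unmarked in D1240A and F1295A, beside 37.9% of all genes unmarked in TKO, 94.3% in D1240A and 91.6% in F1295A. The WT peaks of the 18 genes had a median percentile of 84.1, beside 71.9 for all WT-marked genes. The members thus lay mostly among strong peaks, where most genes kept the mark in every form.

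The lists differ in length, and this moved the comparison with TKO. With the 2083 strongest H3K27me3 peaks of each list, the mark stood at 10 of the 56 genes in TKO, 14 in D1240A, 14 in F1295A and 16 in WT, beside 5.68% of all genes in TKO, 5.23% in D1240A, 5.79% in F1295A and 7.14% in WT. Of the members then marked in WT, 6 were unmarked in TKO, 2 in D1240A and 2 in F1295A, beside 32.3% of all WT-marked genes in TKO, 32.0% in D1240A and 26.4% in F1295A. At equal numbers TKO was thus the form with the fewest marked members, which was not so with the full lists.

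**Figure D4:**
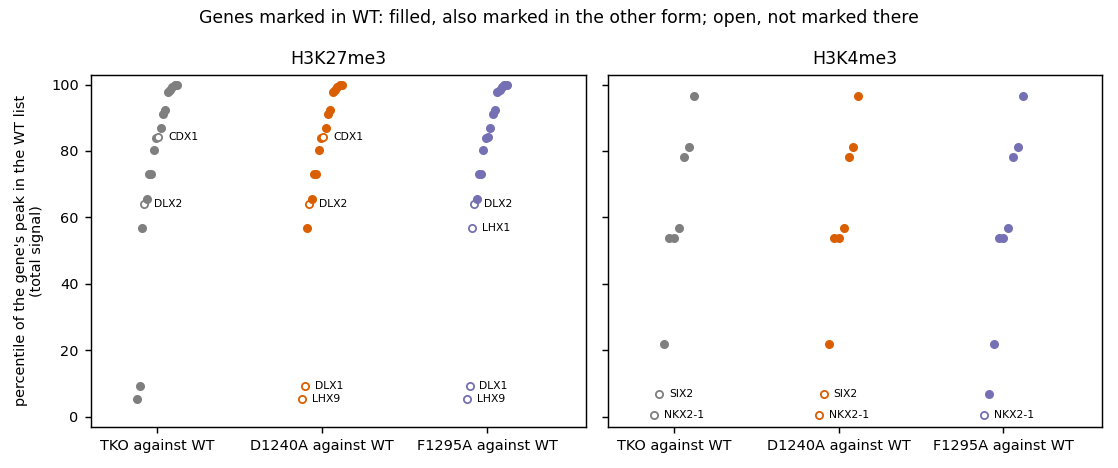
Percentile by total signal in the WT list (vertical axis) of the peak at each gene marked in WT, 18 genes for H3K27me3 at left and 9 for H3K4me3 at right, in columns for TKO, D1240A and F1295A against WT. Open circles are genes unmarked in the other form: DLX1 and LHX9 lie at percentiles 9.35 and 5.24, DLX2, LHX1 and CDX1 between 56.8 and 84.2, and for H3K4me3 SIX2 and NKX2-1 at 6.80 and 0.633.

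H3K4me3 was found at the ends of 7 genes in all 4 forms (12.5%, beside 38.96% of all genes): IRX3, IRX5, LHX4, NKX6-1, OTX1, PITX1 and PITX3. IRX5, which with IRX3 acts in the heart and limbs, had the longest mark, 4.60 kb in TKO, 7.70 kb in D1240A, 7.36 kb in F1295A and 8.36 kb in WT, at percentile 95.5 to 97.1 of its list. Its peak also lay at the end of CRNDE, a long noncoding RNA gene beside it, and which of the 2 genes the mark belongs to cannot be told apart. The same limit holds at OTX1 (EHBP1-AS1), PITX1 (PITX1-AS1), DLX2 (DLX2-DT) and NKX2-1 (SFTA3 and NKX2-1-AS1), where the genes in brackets are also noncoding. H3K27me3 peaks were shared with protein-coding neighbours as well, among them those at CDX1 (SLC6A7), TLX2 (DQX1) and GBX1 (ASB10). IRX3 had 3.22 kb in TKO, 4.13 kb in D1240A, 4.61 kb in F1295A and 5.20 kb in WT, the lowest again in TKO.

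PITX1, a hindlimb factor, had 3.70 kb in TKO, 4.57 kb in D1240A, 5.86 kb in F1295A and 3.73 kb in WT, with the peak at its start and ranked at percentile 76.0 to 84.1. NKX6-1, which acts in motor neurons and insulin-producing beta cells, had 2.82 kb in TKO, 3.83 kb in D1240A, 3.68 kb in F1295A and 3.997 kb in WT. OTX1, a factor of the forebrain, had 3.33 kb in TKO, 2.99 kb in D1240A, 3.90 kb in F1295A and 3.95 kb in WT. At both genes the peak covered the start in every form. In TKO they ranked low, NKX6-1 at percentile 2.59 and OTX1 at percentile 8.15, whereas in WT NKX6-1 stood at 56.7 and OTX1 at 21.9.

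Across these 7 genes the marked length relative to WT had a median of 0.780 in TKO, 0.926 in D1240A and 0.989 in F1295A. It was shorter than in WT at all 7 in TKO, 5 in D1240A and 4 in F1295A. Over the 7782 genes with H3K4me3 in all forms the medians were 0.810 in TKO, 0.999 in D1240A and 1.10 in F1295A, so the short peaks in TKO were shared with other genes.

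At PITX3 the H3K4me3 peak lay 8.72 to 12.1 kb after its start across the forms, where the ends of GBF1 and ELOVL3 also lie, and no H3K4me3 peak covered its start. PITX3 is therefore counted with both marks by its ends while its own start carried no H3K4me3. LHX4, a pituitary and motor neuron factor, was the single member with both marks over its start. H3K27me3 there measured 15.7 kb in TKO, 6.05 kb in D1240A, 10.1 kb in F1295A and 10.8 kb in WT, and H3K4me3 measured 3.80 kb in TKO, 6.20 kb in D1240A, 5.38 kb in F1295A and 4.17 kb in WT. The bases under H3K4me3 lay wholly under H3K27me3 in TKO, F1295A and WT, and to 97.5% in D1240A. The promoter printed above was inside both peaks in all 8 lists. Whether both marks sit on the same chromatin or in different cells cannot be told apart in these data.

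Calls of H3K4me3 differed from WT at 3 genes. NKX2-1, the factor of thyroid and lung, had 0 in TKO, D1240A and F1295A, where the nearest peak was over 688 kb away, and 3.42 kb in WT. SIX2, which maintains kidney progenitors, had 0 in TKO, 0 in D1240A, 3.51 kb in F1295A and 4.38 kb in WT. Both WT peaks covered the start and both were weak, at percentile 0.633 for NKX2-1 and 6.80 for SIX2. Of the 9 genes with H3K4me3 in WT, 2 were unmarked in TKO, beside 9.38% of all WT-marked genes, 2 in D1240A, beside 5.27%, and 1 in F1295A, beside 1.64%. NKX2-1 and SIX2 were among 3 members in the lowest of the 4 WT rank groups. In that group 35.5% of all genes were unmarked in TKO, 22.5% in D1240A and 6.56% in F1295A. With the 7396 strongest peaks of each list neither gene was called in WT. No member was then marked in WT and unmarked in another form, beside 5.15% of all WT-marked genes in TKO, 2.88% in D1240A and 2.64% in F1295A.

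DLX2 alone gained H3K4me3. A peak covered its start in TKO, 1.87 kb wide and at percentile 4.33, and in F1295A, 4.61 kb wide and at percentile 11.7, with none there in D1240A or WT. Of the genes without H3K4me3 in WT, this was 1 member in TKO, beside 0.577% of all such genes, 0 in D1240A, beside 0.506%, and 1 in F1295A, beside 2.82%. Between DLX1 and DLX2 a further H3K4me3 peak stood in every form, with 1.96 kb in TKO, 2.74 kb in D1240A, 2.38 kb in F1295A and 2.85 kb in WT. It was wholly under H3K27me3 in WT, and no H3K27me3 lay over it in TKO, D1240A or F1295A. At DLX2 the start was under H3K27me3 in WT, under H3K4me3 in TKO and F1295A, and under neither in D1240A.

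The 31 genes without a peak at their ends in any list included regulators of many organs. Among them were the brain and eye factors EMX2, EN1, EN2, GBX2, LHX2, LHX6, LHX8, OTX2, PAX6, SIX3, SIX6 and VAX1. PAX3 and PAX7 of muscle precursors, the heart factors NKX2-5 and IRX4, the thyroid factor PAX8 and the intestinal factor CDX2 were also unmarked. The others were DLX5, DLX6, GSC, IRX1, IRX2, IRX6, MSX2, NKX2-2, NKX2-3, NKX6-2, PAX1, PAX9 and TLX3. For 25 of the 31 no base of either mark lay within 10 kb in any list. The share of all genes at 10 kb was not computed, so whether this count is unusual cannot be told.

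The other 6 had a peak more than 1 kb from both ends and within 10 kb of one. At PAX7, LHX6, PAX6 and LHX8 a peak of the mark lay inside the gene record. At LHX2 and NKX6-2 it lay outside the record. PAX7 had 6.08 kb of H3K27me3 in TKO, 8.13 kb in D1240A, 4.08 kb in F1295A and 8.21 kb in WT, starting 1.79 to 5.92 kb from an end. LHX2 had 7.03 kb in TKO, 0 in D1240A, 7.11 kb in F1295A and 7.27 kb in WT. LHX6 had H3K27me3 within 10 kb in TKO alone (5.18 kb), and PAX6 (4.97 kb) and NKX6-2 (3.47 kb) in WT alone. LHX8 had H3K4me3 instead, 4.89 kb in TKO, 5.41 kb in D1240A, 5.20 kb in F1295A and 4.82 kb in WT, at 4.59 to 5.18 kb from an end. These genes are unmarked at 1 kb and not at 10 kb.

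Genes without H3K27me3 at their ends were mostly far from it. Their nearest peak lay at a median of 934 kb in TKO (40 genes), 2122 kb in D1240A (42), 2235 kb in F1295A (42) and 1144 kb in WT (38). For all unmarked protein-coding genes the medians were 269 kb in TKO, 903 kb in D1240A, 913 kb in F1295A and 467 kb in WT. In every form the developmental genes without the mark were thus further from it than unmarked genes in general. The same held for H3K4me3, so this was not particular to H3K27me3. Its medians were 167 kb in TKO, 166 kb in D1240A, 134 kb in F1295A and 106 kb in WT. For all genes without H3K4me3 they were 97.1 kb in TKO, 93.0 kb in D1240A, 88.8 kb in F1295A and 85.2 kb in WT.

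Relatives were found in like and in unlike states. DLX3 and DLX4, LHX3 and LHX4, and TLX1 and TLX2 all carried H3K27me3 in every form, while TLX3 carried neither mark. IRX3 and IRX5, and PITX1 and PITX3, all carried H3K4me3 at an end in every form, and DLX5 and DLX6 carried neither mark. At PITX3 that end is the one shared with GBF1 and ELOVL3 and not its start. In 5 of 7 other pairs, and like those above chosen after the values were seen, H3K27me3 lay at the ends of exactly 1 of the 2 genes in at least 1 list and never at the other. EMX1, GBX1, VAX2 and MSX1 were marked in all 4 forms and CDX1 in F1295A and WT, while EMX2, GBX2, VAX1, MSX2 and CDX2 were marked in none. Of the other pairs, OTX1 had H3K4me3 in every form and OTX2 in none, and EN1 and EN2 carried neither mark.

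The number of neighbouring genes was counted by mark. Genes with H3K27me3 alone had a median of 13 other protein-coding genes within 500 kb, with a range of 3 to 30, those with H3K4me3 alone had 2, and those with neither mark had 4. DLX2, LHX4 and PITX3, which carried both marks in the same or different lists, had 6, 7 and 22. Over all protein-coding genes the medians were 19 with H3K27me3 alone, 12 with H3K4me3 alone, 23 with both and 10 with neither. The developmental genes lay in emptier regions than genes in general, with a median of 6 neighbours beside 12. The states overlapped: LHX9, MSX1 and DLX1, with H3K27me3 alone, had 3, 5 and 6 neighbours, and the unmarked PAX8 and LHX6 had 17 and 16.

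**Figure D5:**
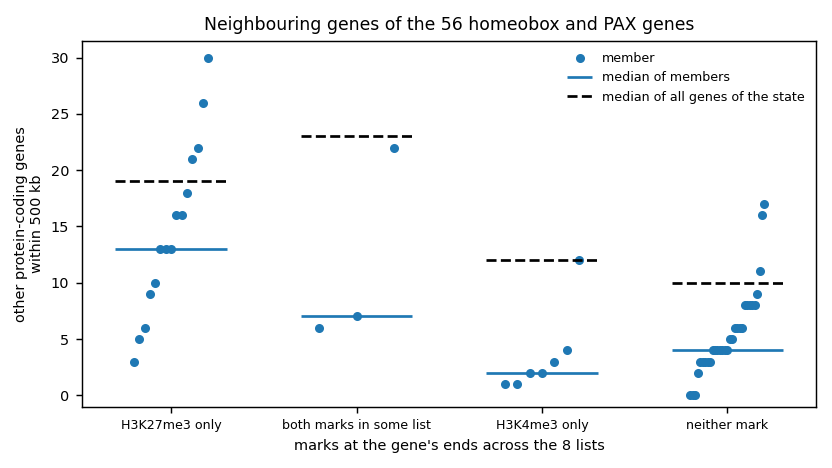
Number of other protein-coding genes within 500 kb (vertical axis) of each of the 56 genes, by the marks at their ends across the 8 lists, with the members' median as a solid line and the median of all protein-coding genes of that state as a dashed line. The members' medians are 13 with H3K27me3 alone, 7 with both, 2 with H3K4me3 alone and 4 with neither, each below the dashed line.

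Promoter sequence was read over 300 bases, from 250 before the start to 50 after it, in the 40 genes with a start site. The median was 23 CpG in genes with H3K27me3 alone (8 genes), 29 with H3K4me3 alone (5 genes) and 23.5 with neither mark (24 genes). For all protein-coding genes the medians were 13 with H3K27me3 alone, 28 with H3K4me3 alone and 12 with neither. The unmarked developmental genes ranged from 9 to 50 CpG, with GSC at 21, beside a median of 22 for all 15813 promoters whatever their marks. Their median was higher than that of unmarked genes in general and close to that of all promoters. TAATTA, the core sequence that many homeodomains bind and which reads the same on both strands, was found in the window of 2 of 40 genes (EMX2 and MSX2, 5%), beside 3.35% of all 15813 promoters. This match is a description of letters and not of binding.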

How the data were processed

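H3K27me3 and H3K4me3 were measured by ChIPmentation in 12 of 16 samples from 4 forms, with the IgG samples left out. The submitters' processing notes name the build GRCh38 with SEACR 1.3, Bowtie2 2.4.5, FastQC 0.11.4 and Trimmomatic 0.36. How SEACR was run (mode, control, threshold) is not given in the sources used here. The deposited lists give each peak's total and highest signal as the authors' peak caller wrote them, in a scaling that is not given. Per the labels, the 2 H3K27me3 replicates of each form have 1 common list, so replicates could not be compared. Signal was used only to rank peaks within a list. Read totals are unknown.

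Gene records on GRCh38.p14 and promoter sequences came from RefSeq. All 56 members matched. Peaks, gene ends, marked lengths and ranks were computed with pandas 2.3.3, numpy 2.4.6 and scipy 1.17.1 under Python 3.11.15 (figures: matplotlib 3.10.9). The calls and marked lengths were tested on simulated peaks that lay before the lower end of a gene record. Ranks, and peaks inside a record or at its upper end, were not tested this way. The members and lists were chosen with earlier results of these data known. Named genes were those whose call differed from WT, the 8 with most H3K27me3 in WT among those marked in all forms, those with H3K4me3 in all forms, those with both marks and those with none. The alternatives were equal peak numbers, the stronger 50% of each list, a 2.5 kb window, whole gene records, start sites alone, and calls of a difference only where the other form lacked peaks within 10 kb. No test was planned or run.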

Additional observations from a re-analysis of the deposited data

How the results depend on the processing

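Counts over the 56 genes moved by over 1.5 times under each alternative at some point, most often with start sites alone and with the stronger 50% of each list (11 of 24 counts each), and least with a 2.5 kb window (1 of 24) or whole gene records (2 of 24). In what follows, "unmarked" counts genes marked in WT and unmarked in the form named, and "added" counts the reverse. With equal peak numbers, H3K27me3 stood at 10 genes in TKO, with 6 unmarked in TKO, 2 in D1240A and 2 in F1295A, both marks stood at 1 gene in TKO, and for H3K4me3 there were 0 unmarked in TKO, 0 in D1240A and 0 in F1295A, with 2 added in F1295A. Where the other form also had to lack a peak within 10 kb, 0 genes were unmarked for H3K27me3 in TKO, and 0 were added for H3K4me3 in TKO and 0 in F1295A. With start sites alone, which 40 of the 56 genes have, H3K27me3 stood at 8 genes in TKO, 5 in D1240A, 5 in F1295A and 9 in WT, with 1 unmarked in TKO. H3K4me3 then stood at 5 in TKO and 4 in D1240A, and both marks at 1 gene in TKO, 1 in D1240A, 1 in F1295A and 1 in WT. With the stronger 50% of each list, H3K27me3 stood at 9 genes in D1240A, with 7 unmarked in D1240A and 1 added in TKO. H3K4me3 stood at 3 in TKO, with 1 unmarked in D1240A, 0 unmarked in F1295A, 0 added in TKO and 0 added in F1295A, and both marks stood at 0 genes in TKO, 0 in D1240A and 1 in F1295A. Over whole gene records, 1 gene was added for H3K27me3 in TKO and both marks stood at 1 gene in D1240A. With a 2.5 kb window, 4 genes were unmarked for H3K27me3 in TKO. Fewer peaks or fewer genes enter equal peak numbers, the stronger 50% and start sites by construction. Otherwise the cause was not tested. Among these alternatives, shares over all genes were computed for equal peak numbers only. The counts under the others have no such share beside them. They do not show whether the members still differ from genes in general, at start sites in particular.

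No paired analysis was possible because both H3K27me3 samples of a form share 1 peak list and H3K4me3 has 1 sample per form. Leaving out a replicate was not possible for the same reason. Read depth is unknown and limits every absence of a peak.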

Other observations

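Members with H3K27me3 were also counted by chromosome, and part of the chromosomes are given here. All 3 members on chromosome 17 (DLX3, DLX4 and LHX1) had H3K27me3 in at least 1 form, beside 17.0% of all protein-coding genes on that chromosome. So did 5 of 12 on chromosome 2, beside 10.05% of its genes, and 3 of 7 on chromosome 10, beside 10.2%. None of the 5 members on chromosome 14 (GSC, NKX2-1, OTX2, PAX9 and SIX6) and none of the 3 on chromosome 16 (IRX3, IRX5 and IRX6) had it, while 19.1% of all protein-coding genes on chromosome 16 and 7.93% on chromosome 14 did. On chromosome 5, 1 of 8 members had it, beside 6.19% of its genes. These counts are small, DLX3 and DLX4 share a peak, and no test was run. They do not show whether chromosomes differ.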
